A study of Mus musculus with 7 samples.

Results

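The genes described here are 6 imprinted genes of mouse chromosome 2 that lie at 3 loci: Gnas with its antisense RNA Nespas, H13 with the retrogene Mcts2 inside it, and Blcap with Nnat inside it. They were taken by gene symbol and are 6 of the 43346 gene identifiers in the deposited counts. RNA was sequenced from the proximal and distal tibial growth plates of 7 male F1 mice from a C57BL/6J (B6) by CAST/EiJ (CAST) cross, aged 21 d, with no treatment and no second group. Each mouse gave 1 library, in which reads were assigned to the B6 or the CAST chromosome, so the comparison is between the 2 alleles within the same cells of the same mouse. The mice carry the numbers of the sample labels, 1, 2, 3, 4, 5, 7 and 8, and the libraries held 14098019 (mouse 7) to 37849667 (mouse 5) counts, with a median of 27603769.

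Imprinted genes are expressed mainly from the chromosome inherited from the mother or mainly from the one inherited from the father, following methylation marks set in the egg or sperm. Gnas is a compound locus. Its most widely used promoter gives Gs-alpha, the G protein subunit that couples hormone receptors to adenylyl cyclase, from both chromosomes in most tissues and mainly from the maternal one in some. Upstream promoters of the same gene give the maternal transcript Nesp and the paternal transcripts XL-alpha-s and exon 1A. Nespas is a paternal noncoding RNA transcribed against the direction of Nesp. In the growth plate Gs-alpha carries the signal of the PTH/PTHrP receptor, which holds chondrocytes back from hypertrophy. H13 encodes signal peptide peptidase, a membrane protease. Mcts2 is a copy of the X-linked gene Mcts1 that was inserted into an intron of H13 and is expressed from the paternal chromosome. H13 transcripts that end before Mcts2 are known from the paternal chromosome and longer ones from the maternal chromosome. Nnat encodes neuronatin, a small membrane proteolipid known from brain and expressed from the paternal chromosome. Blcap encodes a small protein of uncertain function, with a maternal bias known in brain.

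On the GRCm38 (mm10) assembly, Gnas occupies chr2:174284320-174346744 on the plus strand and Nespas chr2:174281237-174295436 on the minus strand. H13 lies at chr2:152669461-152708670 and Mcts2 at chr2:152687035-152687946, both on the plus strand. Nnat, at chr2:157560078-157562522 on the plus strand, lies within Blcap, at chr2:157556362-157571274 on the minus strand. GENCODE lists 24 Gnas transcripts with 16 different starts. The deposited counts give 1 value per gene and allele, so the oppositely imprinted transcripts of Gnas are added together in its row. The 250 bases before 3 of its RefSeq start sites (GRCm38.p6, plus strand) are shown because transcripts from all of them enter the same row, with each CG, the dinucleotide that carries DNA methylation, in capitals.
Gnas start 174284320 (Nesp), chr2:174284070-174284319: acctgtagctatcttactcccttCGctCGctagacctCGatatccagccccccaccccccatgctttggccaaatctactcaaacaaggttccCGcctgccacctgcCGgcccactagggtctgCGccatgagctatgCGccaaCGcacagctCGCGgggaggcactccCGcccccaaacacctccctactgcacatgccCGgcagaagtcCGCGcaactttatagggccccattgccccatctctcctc
Gnas start 174327768 (exon 1A), chr2:174327518-174327767: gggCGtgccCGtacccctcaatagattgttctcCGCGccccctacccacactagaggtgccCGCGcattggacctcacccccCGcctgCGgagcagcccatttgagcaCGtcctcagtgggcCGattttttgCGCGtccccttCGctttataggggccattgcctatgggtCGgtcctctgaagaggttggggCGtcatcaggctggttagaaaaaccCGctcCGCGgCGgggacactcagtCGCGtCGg
Gnas start 174330006 (Gs-alpha), chr2:174329756-174330005: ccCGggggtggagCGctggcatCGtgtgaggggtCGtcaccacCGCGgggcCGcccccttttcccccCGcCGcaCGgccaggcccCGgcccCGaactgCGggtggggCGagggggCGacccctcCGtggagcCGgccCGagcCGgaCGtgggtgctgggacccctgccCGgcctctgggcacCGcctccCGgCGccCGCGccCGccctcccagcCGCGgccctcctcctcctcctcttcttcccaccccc
These windows held 14, 22 and 29 CG, against a median of 6 over the 32851 RefSeq promoter windows of the same length. At least as many CG were found in 29.4%, 14.8% and 6.78% of all windows. Overlapping CGCG counts as 2. DNA methylation was not measured in these samples.

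The second pair of sequences shows how far Mcts2 can be told from its source gene. The first 90 of 546 coding bases are given for both (GENCODE transcripts on the B6 reference), with the 15 bases that differ in capitals.
Mcts2: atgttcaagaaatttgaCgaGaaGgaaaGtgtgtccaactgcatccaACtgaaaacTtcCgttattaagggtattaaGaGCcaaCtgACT
Mcts1: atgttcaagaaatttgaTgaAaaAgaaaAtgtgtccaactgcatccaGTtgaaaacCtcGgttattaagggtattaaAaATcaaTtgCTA
Over all 546 coding bases, 81 differed (85.2% identical). Each of the 472 windows of 75 bases, the read length, held 7 to 17 differences, more than the 3 mismatches the alignment allowed. No stretch of 75 bases in the Mcts2 transcript was shared with an annotated transcript of another gene. Its total was a whole number of counts in 7 of 7 mice. The same held for Mcts1. Introns were not part of this search. Mcts2 lies in an intron of H13 on the same strand, so unspliced H13 RNA could be counted as Mcts2. The part of such RNA in the Mcts2 counts was not tested.

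For Gnas, Nespas and H13, exons on the opposite strand share sequence. Of the 75-base words in Gnas transcripts, 17.1% also occurred, on the opposite strand, in Nespas or in Gm20721. Of those in Nespas, 29.2% occurred in Gnas or in small RNA genes within it, and of those in H13, 7.66% in the antisense gene Gm26841. Nnat shared 0.58% of its words with Gm23134 on the opposite strand, and Blcap 0.89% with Gm3852 on the same strand. Totals of Gnas, Nespas and H13 were whole, to a tolerance of 1e-04, in 0 of 7 mice, which marks reads divided between genes, while Blcap totals were whole in 7 of 7. The kit marks strand, but whether the counting used it is not given in the sources used here, so reads from these genes and their antisense partners may not be fully separated. A total that was not whole in at least 1 mouse occurred in 49.8% of all tested genes.

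Reads that match both alleles were divided between them, and the share of informative reads in each gene was not analysed here. A count on an allele is therefore an estimate and does not by itself show that the allele was expressed.

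The mother's allele was read from transcripts that come from her alone. Mitochondrial counts were 99.98% to 99.99% from the B6 allele, and X-linked counts were 91.1% ± 0.468 from B6 (SD, n = 7), against 49.5% ± 0.128 for autosomal genes. The X-linked counts on CAST lie on an allele that these males do not carry. All 7 male mice therefore had a B6 mother, and the CAST allele is the father's. Since every mouse came from the same cross direction, an effect of parent of origin and an effect of strain cannot be told apart for any single gene. The tissue label was checked on cartilage markers, which were above 0 for 10 of 10 genes in every mouse and summed to 60794 to 97496 CPM (counts per 1000000 counts of the library), with Col2a1 at 38278 to 71280 CPM. Markers of other cells summed to 1925 to 2599 CPM for osteoblasts, 3409 to 8411 for red cells, 909.9 to 1725 for myeloid cells, 1602 to 3804 for muscle and 77.1 to 151 for adipocytes. Of 4 neuron markers 2 were above 0 in every mouse, Snap25 was at 0, and the sum was 1.14 to 2.38 CPM. The part of these other cells in the values below was not tested, and a level in such mixed tissue cannot separate the number of expressing cells from the RNA in each.

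Alleles were compared with edgeR over 20239 tested genes, with CAST minus B6 as the direction, and a gene was called at a false discovery rate (FDR) under 0.20, the threshold of the study. Across all tested genes 34.5% were called, 16.0% higher on CAST and 18.5% higher on B6. Of the 6 imprinted genes 4 were called, Nespas and Mcts2 higher on CAST, and Gnas and H13 higher on B6. For a single gene, the log2 ratio of CAST to B6 in each mouse (pseudocount 0.5) was also tested by flipping its sign in all combinations of the 7 mice (exact permutation test, two-sided), for which p cannot be below 0.0156.

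Gnas had counts on both alleles, with the B6 allele higher in 7 of 7 mice. The B6 allele had 5785 to 15759 counts per mouse, with a median of 11667, and the CAST allele 4526 to 11239, with a median of 9224. The B6 share was lowest in mouse 3 (55.8%), 57.4% at the median and highest in mouse 4 (59.5%). Thus no mouse was on the other side of 50%, and the shares were spread over less than 4 percentage points. The mean share was 57.3% ± 1.35 (SD, n = 7), a log2 ratio of -0.42 ± 0.080. The edgeR log2 fold change was -0.41, a 1.33-fold difference (FDR 7.85e-06), and the exact sign-flip test gave p = 0.0156. A difference at least this large was found in 21.6% of the 14526 autosomal genes that reached 10 counts in each mouse, whose median log2 fold change was 0.016.

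Nespas was higher on the CAST allele in 7 of 7 mice, at far lower counts and with a wider spread. B6 and CAST counts were 27.6 and 106 in mouse 1, 26.9 and 51.2 in mouse 2, 26.6 and 71.6 in mouse 3, and 15.6 and 40.4 in mouse 4. They were 5.31 and 94.1 in mouse 5, 24.1 and 37.4 in mouse 7, and 7.64 and 73.4 in mouse 8. The B6 share was lowest in mouse 5, at 5.3% (95% Clopper-Pearson interval 1.7% to 11.4%, counting error only, any divided reads included), and 9.4% in mouse 8. In the other 5 mice it was 20.6% to 39.3%, and the interval of mouse 7 reached from 27.1% to 52.7%. Mouse 5 had the deepest library and mouse 7 the shallowest; the part of depth in this spread was not tested. The mean B6 share was 23.4% ± 12.5 (SD, n = 7) and the log2 ratio 1.92 ± 1.25, with p = 0.0156 in the exact sign-flip test. In edgeR the log2 fold change was 1.70, or 3.24-fold (FDR 1.15e-06), and 2.84% of autosomal genes differed by at least as much.

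Measured in the same mice, the Nespas log2 ratio exceeded that of Gnas by 2.34 ± 1.26 (SD, n = 7), with a range of 0.97 to 4.51 and the same sign in 7 of 7 mice. The exact sign-flip test of this difference gave p = 0.0156, and 0.0234 after Benjamini-Hochberg adjustment over the 3 gene pairs compared. Each gene already had its own direction in 7 of 7 mice, so this p was fixed by those results and adds no evidence to them. The estimated counts of the antisense RNA and of the gene it overlaps were thus higher on opposite alleles in 7 of 7 mice. Reads of these genes may not be fully separated, and the Gnas row adds oppositely imprinted transcripts.

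**Figure D1:**
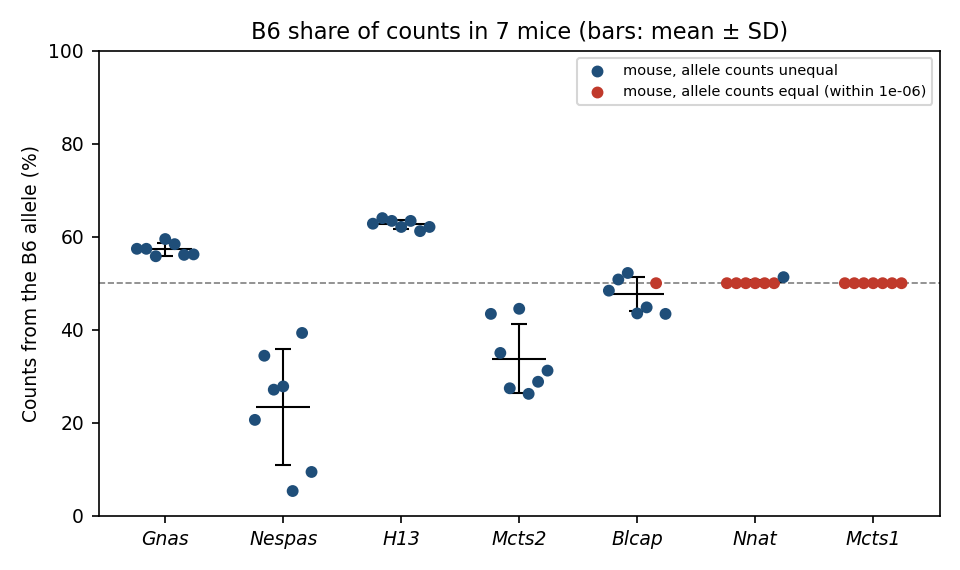
Share of counts from the B6 allele (percent, vertical axis) for each gene, with 1 point per mouse (n = 7), the mean as a horizontal bar and the SD as error bars; the dashed line marks 50%. Gnas (55.8% to 59.5%) and H13 (61.2% to 64.0%) sit above the line in every mouse, Nespas and Mcts2 below it, and red points mark mice with equal counts, which include all 7 for Mcts1.

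H13, the host gene of Mcts2, was higher on the B6 allele in 7 of 7 mice. B6 counts were 1289 to 3717 per mouse, with a median of 2497, and CAST counts 818 to 2145, with a median of 1442. The B6 share was 61.2% in mouse 7, 62.8% at the median and 64.0% in mouse 2, with no mouse near 50%. This was the narrowest spread among the 4 called genes, with a mean of 62.7% ± 0.975 (SD, n = 7) and a log2 ratio of -0.75 ± 0.060. The edgeR log2 fold change was -0.73, or 1.66-fold (FDR 3.80e-12), and the exact sign-flip test gave p = 0.0156. Among autosomal genes, 9.58% differed by at least as much.

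Mcts2, the paternal retrogene, was higher on CAST in 7 of 7 mice. B6 and CAST counts were 71.1 and 92.9 in mouse 1, 31.9 and 59.1 in mouse 2, 28.7 and 76.3 in mouse 3, and 22.7 and 28.3 in mouse 4. They were 30.9 and 87.1 in mouse 5, 14.7 and 36.3 in mouse 7, and 26.2 and 57.8 in mouse 8. The B6 share was 26.2% to 35.0% in 5 mice and higher in mouse 1 (43.4%) and mouse 4 (44.5%), whose 95% intervals of 35.6% to 51.2% and 31.1% to 59.7% include 50%. The mean B6 share of the estimated counts was 33.8% ± 7.51 (SD, n = 7), and how much of it comes from reads that match both alleles was not tested. The log2 ratio was 0.98 ± 0.473, with p = 0.0156 in the exact sign-flip test. The edgeR log2 fold change was 0.95, or 1.93-fold (FDR 7.99e-05), and 6.55% of autosomal genes differed by at least as much.

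Within the mouse, the Mcts2 log2 ratio exceeded that of its host H13 by 1.73 ± 0.483 (SD, n = 7), with a range of 1.02 to 2.27. It was above 0 in 7 of 7 mice (exact sign-flip test, p = 0.0156, adjusted 0.0234). This p, too, was fixed by the opposite directions of Mcts2 and H13 in 7 of 7 mice. Of the 6 annotated H13 transcripts, H13-203 ends 334 bases and H13-206 ends 3594 bases before the start of Mcts2, while the other 4 end beyond it, between positions 152696241 and 152708670. The gene row adds the short and the long forms, so the alleles could not be compared for each form. The part of unspliced H13 RNA in the Mcts2 counts, and so in this difference, was not tested.

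Mcts1, the X-linked source of Mcts2, showed what the counts look like where no read tells the alleles apart. Male mice carry only the mother's copy, yet Mcts1 counts were equal on both alleles, to a tolerance of 1e-06, in 7 of 7 mice, at 71.9 ± 22.1 counts each. The authors' method divides reads that match both alleles, so equal counts are an absence of information and not a measurement of equal expression. Counts were equal in every mouse for 3.68% of the 15111 genes that reached 10 counts in each mouse, and for 5.64% of the 461 such X-linked genes.

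Nnat was in this state in 6 of 7 mice. Its totals were 234, 197, 154, 87.0, 259, 89.0 and 111 counts in mice 1, 2, 3, 4, 5, 7 and 8, and only mouse 8 had unequal counts, 56.9 on B6 and 54.2 on CAST. The edgeR log2 fold change was 0.01 (FDR 1) and the exact sign-flip p was 1, neither of which bears on the allele that is expressed. The allelic state of Nnat was therefore not resolved by these counts.

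Blcap had unequal counts in 6 of 7 mice, so some of its reads told the alleles apart, but their number was not counted. The B6 and CAST counts were 257 and 273 in mouse 1, 276 and 268 in mouse 2, 269 and 247 in mouse 3, 153 and 200 in mouse 4, 297 and 366 in mouse 5, and 187 and 243 in mouse 8. In mouse 7 both alleles had 137 (136.5), equal counts of the kind seen for Mcts1 and Nnat. The CAST allele was higher in 4 mice and the B6 allele in 2, so the estimated counts had no common direction. With the share of divided reads unknown, values near 50% are not a measurement of equal expression. The B6 share was 47.6% ± 3.66 (SD, n = 7), from 43.4% to 52.2%, and the log2 ratio was 0.14 ± 0.212, from -0.13 to 0.38. Neither test passed its threshold (edgeR log2 fold change 0.16, FDR 0.303; exact sign-flip p = 0.188). When mice entered edgeR as a block the FDR was 0.141, and without mouse 3 it was 0.198, both under 0.20. The Nnat and Blcap ratios differed by -0.15 ± 0.227 (exact sign-flip p = 0.188, adjusted 0.188), a value that rests on the unresolved counts of Nnat.

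The genes differed widely in level when both alleles were summed and divided by exon length. Gnas stood highest, at 65.1 ± 3.43 CPM per kb of exon (SD, n = 7), and H13 followed at 17.1 ± 0.838. Blcap was at 5.92 ± 0.287, Mcts2 at 3.91 ± 1.01, Nnat at 3.27 ± 0.681 and Nespas at 1.07 ± 0.248. The ranges over mice did not overlap between Gnas and H13, between H13 and Blcap, or between Nnat and Nespas. Those of Blcap and Mcts2 overlapped, as did those of Mcts2 and Nnat, so these neighbours in the order are not separated by their spread. Mcts2 was at 5.88 CPM per kb in mouse 1 against 2.66 to 4.17 in the other 6 mice. Before division by length, Gnas had 664 to 779 CPM and H13 143 to 166 CPM.

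**Figure D2:**
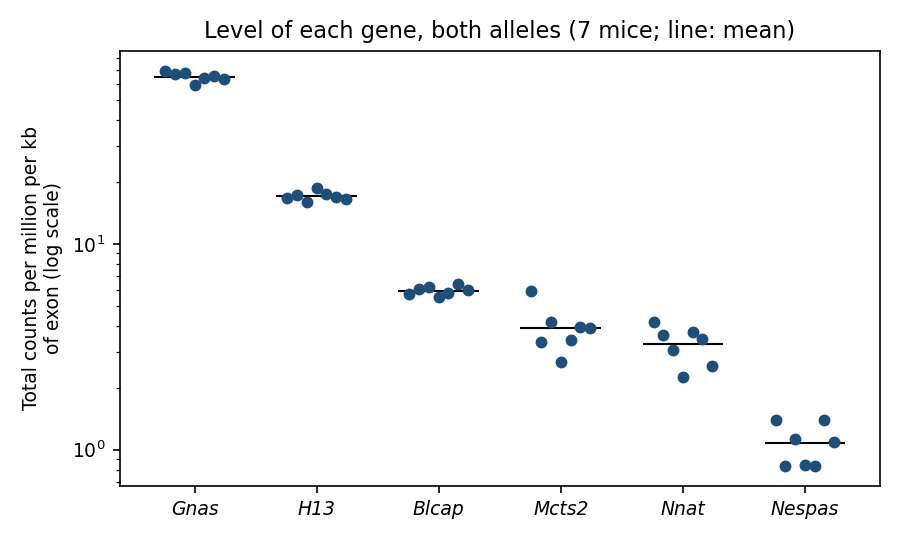
Total level of each gene in CPM per kb of exon (vertical axis, log scale), both alleles summed, with 1 point per mouse (n = 7) and a line at the mean. Gnas lies at 59.3 to 69.7 and H13 at 16.1 to 18.6, and the points of Blcap, Mcts2 and Nnat adjoin or overlap.

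The rest of the series held 39 other imprinted genes from lists of genes with known parental expression in mouse. Of 17 tested genes known to be maternally expressed, 12 were called, all 12 higher on the B6 (maternal) allele, with a median log2 fold change of -1.27 over the 17. Of 19 tested genes known to be paternally expressed, 18 were called, 17 higher on CAST, with a median of 4.08. The 5 with the smallest p were Meg3 and Rian, maternal noncoding RNAs at 99.8% and 99.2% B6, Igf2r, a maternal growth-limiting receptor at 97.7% B6, Plagl1, a paternal zinc finger gene at 1.31% B6, and Sgce, a paternal sarcoglycan gene at 0.00666% B6. Copg2, in the maternal list, was slightly higher on CAST and was not called (log2 fold change 0.06, FDR 0.813). Rtl1, a paternal gene with a maternal antisense transcript, was called and went against its list at 98.5% B6 (log2 fold change -6.08). Nespas and Mcts2, both paternal by background, were higher on the CAST (paternal) allele as these paternal genes were, but with log2 fold changes of 1.70 and 0.95 against the median of 4.08. Both had estimated counts on both alleles in every mouse, of which divided reads may be a part that was not tested. The differences of Gnas (-0.41) and H13 (-0.73) were smaller in size than the maternal median of -1.27. These sizes are a description, since no test compared the chromosome 2 genes with the lists.

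**Figure D3:**
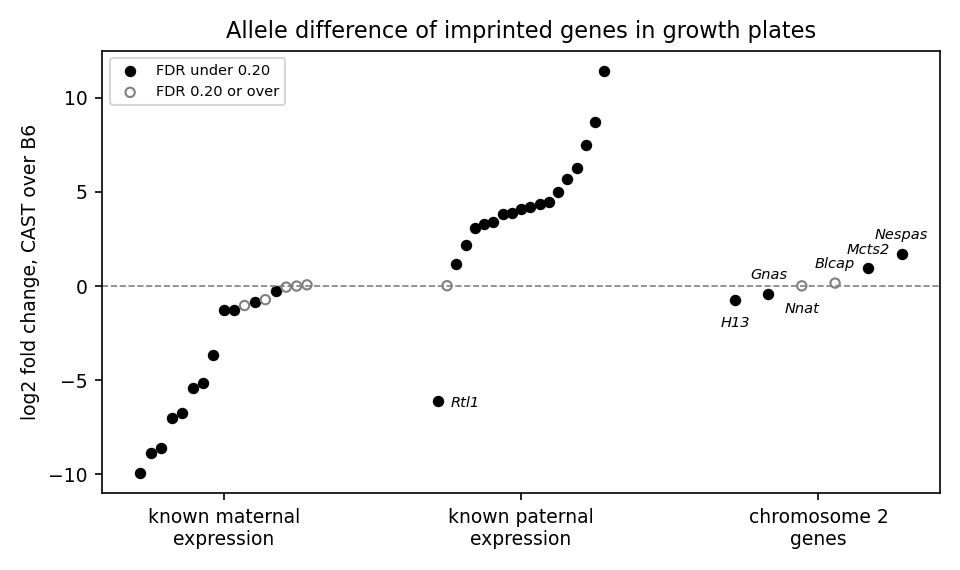
edgeR log2 fold change of CAST over B6 (vertical axis) for genes known to be maternally expressed, genes known to be paternally expressed and the 6 chromosome 2 genes; each point is a gene over 7 mice, filled at an FDR under 0.20, and the order within a group is by value. The chromosome 2 genes lie between -0.73 and 1.70, inside the range of the lists, and Rtl1 stands apart in the paternal list at -6.08.

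Genes beside the 3 loci show how alleles differ on the same stretch of chromosome in genes other than the 6 described here. They include Gm20721, which overlaps Gnas on the opposite strand, and Bcl2l1, for which imprinting has been reported. Neither was called. Of 58 protein-coding genes within 500 kb, 41 were tested and 15 were called (36.6%, near the 34.5% of all tested genes), 6 higher on CAST and 9 higher on B6, with a median log2 fold change of -0.06. When mice entered edgeR as a block, 21 of the 41 were called, against 45.3% of all tested genes in that fit. Around H13, 9 of 21 were called, 4 higher on CAST and 5 on B6. Around Nnat 3 of 9 were called, and around Gnas 3 of 11, all 3 of these higher on B6. The 5 neighbours with the smallest p lay at all 3 loci. Rem1, a small GTPase gene 58.0 kb from the centre of H13, had 19.8 counts on B6 and 60.8 on CAST (means over 7 mice, log2 fold change 1.62, FDR 5.02e-13). This difference was larger than that of Mcts2 (0.95), in the same direction. Rbck1, a subunit of the linear ubiquitin ligase, had 898 on B6 and 567 on CAST (-0.63, FDR 1.60e-09), and Pdrg1 had 740 (739.9) and 482 (-0.59, FDR 4.24e-05). Samhd1, a dNTP hydrolase near Blcap, had 646 and 484 (-0.41, FDR 4.51e-04), and its total was whole in 0 of 7 mice. Near Gnas, the zinc finger gene Zfp831 had 70.7 and 37.0 (-0.90, FDR 0.00392). The other 2 called genes around Gnas, named for completing this count after their values were seen, were Edn3 (-0.92), which encodes an endothelin, and the peptidase gene Npepl1 (-0.28). Differences of the size found for Gnas and H13 thus also occurred in neighbours of both.

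**Figure D4:**
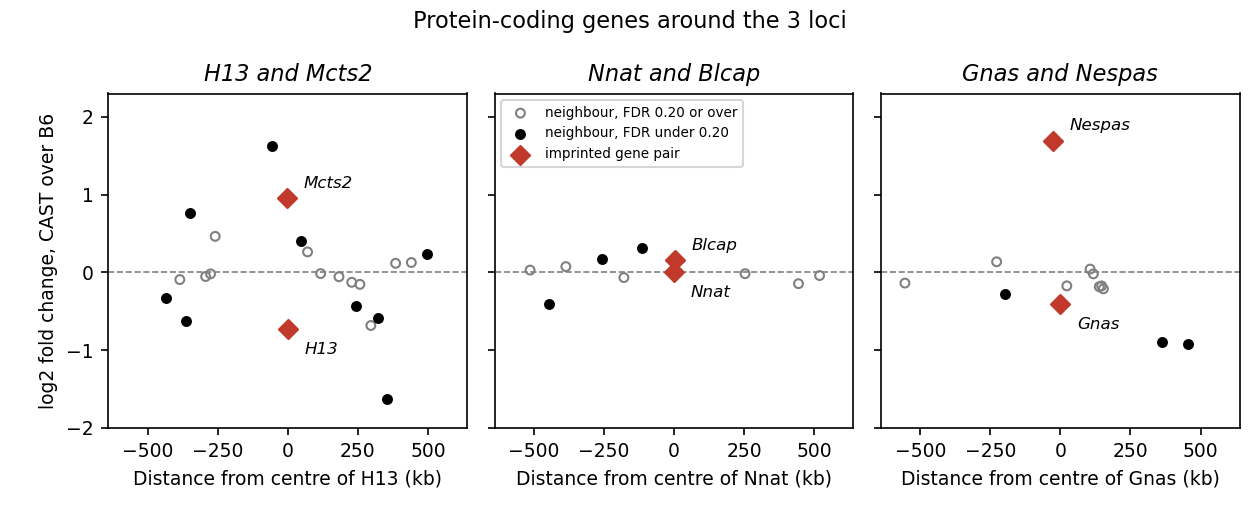
edgeR log2 fold change of CAST over B6 (vertical axis) against distance from the centre of H13, Nnat or Gnas in kb (horizontal axis) for protein-coding neighbours (circles, filled at an FDR under 0.20) and the 2 imprinted genes of each locus (diamonds), each over 7 mice. In the H13 panel Rem1 (1.62) lies above Mcts2 (0.95), and around Gnas the 3 filled circles are all below 0.

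The pathway that Gs-alpha serves was followed through a list of 71 genes, from receptors to nuclear factors, of which 69 were tested. Calls were made for 28 (40.6%, against 34.5% of all tested genes), 16 higher on CAST and 12 higher on B6, and the median log2 fold change was -0.01. With mice as a block, 38 of the 69 were called, against 45.3% of all tested genes in that fit. Among receptors 8 of 15 were called, 6 higher on CAST and 2 on B6. The PTH/PTHrP receptor gene Pth1r was among them, with 4586 counts on B6 and 5310 (5309.7) on CAST (log2 fold change 0.23, FDR 0.187) and CAST higher in 7 of 7 mice. For other G protein subunits and their regulators the count was 5 of 15, for adenylyl cyclases 5 of 8, for protein kinase A subunits, inhibitors and anchors 4 of 11, for Epac genes 1 of 2 and for phosphodiesterases 5 of 11. The smallest FDR among the 7 nuclear factors was 0.303 (Crtc2). The 5 genes with the smallest p were in 4 of these classes. Adcy1, a calcium-stimulated adenylyl cyclase, had 99.6 counts on B6 and 282 on CAST (log2 fold change 1.51, FDR 8.71e-23). Gnal, which encodes the olfactory relative of Gs-alpha, had 81.5 and 39.8 (-0.99, FDR 3.02e-08). Prkar1b, a regulatory subunit of protein kinase A, had 61.5 and 32.7 (-0.91), and the PACAP receptor gene Adcyap1r1 had 67.9 and 36.1 (-0.92). Pkib, an inhibitor of protein kinase A, had 25.0 and 67.2 (1.39). Each of these 5 had the same direction in 7 of 7 mice. Totals of Adcy1 were whole in 7 mice, of Adcyap1r1 in 3, of Prkar1b in 2 and of Gnal and Pkib in 0.

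The total levels of the genes other than Gnas over the 7 mice were set beside those of the 15111 genes that reached 10 counts in each mouse. The closest by Pearson correlation of log2 CPM were Fbxo41 (r = 0.975) for Nespas, Pi4k2a (0.979) for Nnat, Adam22 (0.973) for Blcap, Gm12918 (0.959) for H13 and 2610307P16Rik (0.991) for Mcts2. These are the highest of many values over only 7 mice that share library depth and tissue makeup, and are given as a description with no test.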

How the data were processed

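Reads were aligned by the authors with Bowtie to a joint B6 (mm10) and CAST transcriptome, allowing at most 3 mismatches, and EMASE gave the deposited estimated counts per gene and allele, which are unscaled and often fractional. Read ends were processed separately. The median total was 4.12 times the average number of read pairs in the labels. Intervals treat counts as independent reads and cover counting error only, and they are too narrow if a read was counted more than once. They also take each count as a read that tells the alleles apart, which divided reads do not. Mcts1 in mouse 1, with equal counts on both alleles, still had an interval of 42.5% to 57.5%. The intervals therefore understate the uncertainty of a share where divided reads are part of the counts. Gene positions were from GENCODE M21 (42462 of 43346 identifiers) and promoters from RefSeq.

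Counts were rounded and tested in R 4.3.3 by edgeR 4.0.16 and limma 3.58.1 (TMM, glmFit, glmLRT), keeping genes for which each mouse had a count above 0 on either allele, with Benjamini-Hochberg adjustment over 20239 genes. The script was tested on simulated data. Both alleles of a mouse come from the same library, and their deviations from the allele means correlated at 0.047 to 0.33 within mice. DESeq2 1.42.0, quasi-likelihood tests, other library sizes, filters, a mouse block and leaving out each mouse were alternatives. Summaries used numpy 2.4.6, pandas 2.3.3, scipy 1.17.1 and matplotlib 3.10.9.

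The genes and lists were chosen with earlier results of these data known. Genes named are all 6 members, Mcts1, the 5 with the smallest p of the neighbours, of the Gs pathway list and of the imprinted genes elsewhere, imprinted genes against their list, 3 other chromosome 2 genes with reported imprinting, and the 3 genes most alike in level to each member, of which the closest is printed; those for Gnas are not reported here. Pth1r and Crtc2 were added after their values were seen.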

Additional observations from a re-analysis of the deposited data

Results flagged for a closer look

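The log2 ratio of CAST to B6 for Nnat was -0.07 in mouse 8 and 0 in the other 6 mice. It stood apart because the other mice all had equal counts on both alleles. Of 12 sets of 7 values examined this way, 1 was picked out, where 0.6 would be picked out by chance.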

How the results depend on the processing

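Gnas, Nespas, H13 and Mcts2 kept their direction and their call under each alternative that was run. The edgeR log2 fold change of Nnat, 0.01 in the main fit, was -0.01 (-0.008523) with 1 library size per mouse and -0.00085 with autosomal genes only, with an FDR of 1 in both. Blcap was called with the mouse as a replicate block (log2 fold change 0.16, FDR 0.141), and its fold change was 0.12 to 0.20 when 1 mouse was left out, with a call only without mouse 3. Between 4 and 5 of the 6 genes were called without 1 mouse, in fits that called 6244 to 6784 of the 20239 tested genes. The block changed no call of another of the 6 genes; it called 9171 of all tested genes against 6982, and the quasi-likelihood test with the block 8157. Called neighbours rose from 15 to 21 under both block fits, and called Gs pathway genes from 28 to 38, or to 34 by quasi-likelihood. Within 1 Mb, 32 of 80 tested neighbours were called (40.0%, against 34.5% of all tested genes), a wider window that holds more genes. With totals that leave out the abundant RNAs Rn7s1, Rn7s2 and Rn7sk, mean levels were 911 CPM for Gnas, 4.22 for Nespas, 7.45 for Nnat, 22.6 for Blcap and 190 (189.9) for H13. Other single values stayed within the spread between mice or on the same side of their threshold, and other counts stayed within 1.5 times the main count. Nespas and Mcts2 rest on 51.0 to 164 counts per mouse, which limits the precision of their shares.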

Other observations

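Other chromosome 2 genes with reported imprinting were measured outside the 3 loci or beside them. Gatm, which encodes the first enzyme of creatine synthesis and is known to be imprinted in placenta, had 71.0 counts on B6 and 115 on CAST (means over 7 mice), with CAST higher in 7 of 7 mice (edgeR log2 fold change 0.72, FDR 1.57e-04). CAST is the father's allele here, and strain and parent of origin cannot be told apart for this difference. Its direction was not compared with that of the imprinting in placenta. Bcl2l1, an inhibitor of apoptosis next to H13, had 744 and 755 counts and was not called (log2 fold change -0.02, FDR 1). Sfmbt2, a Polycomb-group gene, had 54.2 and 55.1 counts and was not called (0.01, FDR 1).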
